A study of Mus musculus with 18 samples.

Results

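The Hox genes are the clustered homeobox genes of the mouse, and they were taken here from the genes whose name on the array is Hox followed by a cluster letter from a to d and a paralogue number. Described here are 37 such genes among 27962 gene names on the array, with 48 probes: 10 of the Hoxa cluster, 10 of Hoxb, 8 of Hoxc and 9 of Hoxd. A gene was represented by 1 probe, the brightest of those well above background in the sample channel on at least 3 of the 18 arrays. This requirement was met by 24 Hox genes, which were tested, and not by the other 13.

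The samples were thyroid cells of male and female C57BL/6 mice. The glands were dissociated with collagenase and dispase, and the cells were cultured for 2 days, stained with a Hoechst dye and sorted. Side population cells are those that pump the dye out and lose this ability with verapamil, and the remaining cells are the main population. The groups compared were TSP, side population after partial thyroidectomy (6 arrays); TMP, main population after partial thyroidectomy (3 arrays); CSP, side population without surgery (6 arrays); and CMP, main population without surgery (3 arrays). Each array set a sample labelled with Cy5 against a Cy3 pool of RNA from Swiss Webster mouse tissues that included embryo. The labels do not give the age of the mice, the time since surgery or how many animals a sample holds, so p-values measure the spread between these samples. Because the cells were sorted and pooled, a change in the share of a cell type and a change of RNA within a cell cannot be told apart.

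Hox proteins are transcription factors that bind DNA through a homeodomain and give embryonic cells their position along the body axis. The genes lie in 4 clusters, and their order on the chromosome follows the order in which they are active from head to tail. The low-numbered paralogues pattern the hindbrain and the pharyngeal arches, next to which the thyroid forms, and fibroblasts of adult tissues are known to keep a Hox pattern of their site of origin. Hoxa3 and Hoxa5 are both needed in the mouse for normal thyroid development.

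The difference between the sorted populations was carried by 5 Hox genes, and the oligonucleotides that measured them are shown because they define what was detected. Each is the probe sequence given with the array, in lower case, 5′ to 3′, with its position on the array's mouse build mm7. The Hoxa2 probe lies at chr6:52125851-52125910, Hoxa4 at chr6:52153263-52153322 and Hoxa5 at chr6:52165365-52165424, all on the minus strand. The Hoxd4 probe lies at chr2:74572525-74572584 and Hoxd8 at chr2:74550680-74550739, both on the plus strand.
Hoxa2: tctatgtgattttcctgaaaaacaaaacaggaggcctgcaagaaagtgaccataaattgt
Hoxa4: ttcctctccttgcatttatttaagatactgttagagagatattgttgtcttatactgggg
Hoxa5: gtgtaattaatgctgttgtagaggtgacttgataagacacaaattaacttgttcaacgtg
Hoxd4: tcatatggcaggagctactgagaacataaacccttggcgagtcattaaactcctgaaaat
Hoxd8: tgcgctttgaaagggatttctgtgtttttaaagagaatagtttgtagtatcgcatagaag

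The promoters of these genes are shown because the members moved together. RefSeq entries of build GRCm38.p6 were held for 22 genes with a Hox name, with 24 promoters of 300 bases each. They were counted by name and not limited to the 37 genes described. Among them were Hoxa2, Hoxa5, Hoxd4 and Hoxd8. Capitals mark every match, on either strand, to TGATNNAT, the composite that Pbx and Hox proteins bind together, and to AGGTCA, the short site bound by retinoic acid and other nuclear receptors. The Hoxa2 promoter (chr6:52164782-52165081, minus strand) held 1 match to TGATNNAT. The promoters of Hoxa5 (chr6:52204538-52204837, minus strand), Hoxd4 (chr2:74721728-74722027, plus strand) and Hoxd8 (chr2:74704365-74704664, plus strand) held 1 match each to AGGTCA.
Hoxa2: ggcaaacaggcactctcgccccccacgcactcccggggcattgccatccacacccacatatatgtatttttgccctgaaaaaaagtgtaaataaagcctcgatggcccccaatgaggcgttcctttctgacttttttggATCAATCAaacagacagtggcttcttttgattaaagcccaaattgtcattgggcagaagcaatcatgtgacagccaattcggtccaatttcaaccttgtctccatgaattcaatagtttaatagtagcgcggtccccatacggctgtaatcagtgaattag
Hoxa5: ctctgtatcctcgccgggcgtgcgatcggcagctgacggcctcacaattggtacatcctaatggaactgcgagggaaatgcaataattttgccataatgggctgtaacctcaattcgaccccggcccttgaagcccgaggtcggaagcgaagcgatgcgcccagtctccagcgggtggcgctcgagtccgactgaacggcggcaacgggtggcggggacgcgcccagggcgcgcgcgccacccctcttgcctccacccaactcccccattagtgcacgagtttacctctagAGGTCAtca
Hoxd4: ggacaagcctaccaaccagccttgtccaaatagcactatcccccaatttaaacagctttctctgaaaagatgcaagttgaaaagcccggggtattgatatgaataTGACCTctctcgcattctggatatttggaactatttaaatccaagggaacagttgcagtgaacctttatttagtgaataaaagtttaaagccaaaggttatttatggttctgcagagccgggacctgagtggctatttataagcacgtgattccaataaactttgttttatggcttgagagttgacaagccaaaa
Hoxd8: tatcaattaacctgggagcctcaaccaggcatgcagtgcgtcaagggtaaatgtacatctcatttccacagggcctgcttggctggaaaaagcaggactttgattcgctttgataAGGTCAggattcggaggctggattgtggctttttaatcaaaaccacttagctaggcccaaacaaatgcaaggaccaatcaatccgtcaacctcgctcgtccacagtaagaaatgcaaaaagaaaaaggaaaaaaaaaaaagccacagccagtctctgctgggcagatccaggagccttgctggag
TGATNNAT was present in 4 of the 24 Hox promoters, against 8.85% of all 32851 promoters. AGGTCA was present in 7 of the 24, against 16.3% of all promoters. The motifs were chosen with these sequences in view, they do not overlap in the promoters shown, and a match is a run of letters and not a site known to be bound.

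TSP 1 and TSP 2 stood apart from the other side population arrays and went against their label. Across genes, their log2 ratios had a median correlation of 0.9480 with those of the main population arrays and of 0.6948 with those of the other side population arrays. Follicular markers such as Pax8 averaged a log2 ratio of 2.93 to 2.99 on these 2 arrays, from -0.10 to 0.51 on TSP 3 to TSP 6, and from 2.51 to 3.12 on the 6 main population arrays. Results that rest on TSP are therefore given with and without them, and since both were picked by their expression, p-values without them are too small. In the authors' deposited table, 9 of 18 columns matched the scanner array of the same name best. The others matched another array best, 8 of them one of their own group and 1 one of another group, so array numbers here are those of the scanner files. The slides also differed. On slides 1 and 5 the Cy5 background was 60.0 to 92.5 units and 6 to 12 Hox genes per array were well above it, and on slides 2 to 4 the background was 42.0 to 43.0 units and 15 to 22 Hox genes were.

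Among the 4 clusters, Hoxa had the largest share of detected genes and Hoxc the smallest, in counts of few genes with 1 probe each. Of the 10 Hoxa genes 8 were well above background on at least 3 arrays, as were 7 of 10 Hoxb, 3 of 8 Hoxc and 6 of 9 Hoxd genes. By position, 11 of 14 genes with paralogue numbers 1 to 5 were detected in this way, 5 of 8 with numbers 6 to 8, and 8 of 15 with numbers 9 to 13. Of all 27962 gene names on the array, 20455 were kept by the same rule. The shares of Hoxa, Hoxb, Hoxd and of numbers 1 to 5 are near that background. Hoxa7 and Hoxb2 were well above background on all 18 arrays. Of the 13 genes not tested, Hoxb13 and Hoxc8 were well above background on 1 array each and Hoxc6 and Hoxd1 on 2 each. The other 9 were above it on none: Hoxa11, Hoxa13, Hoxb1, Hoxb8, Hoxc10, Hoxc12, Hoxc13, Hoxd3 and Hoxd11. For 4 of these 9 the tissue pool was not well above background on any array by any probe either, so that a low reading there does not tell a silent gene from a weak probe. No Hox spot was saturated.

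**Figure D1:**
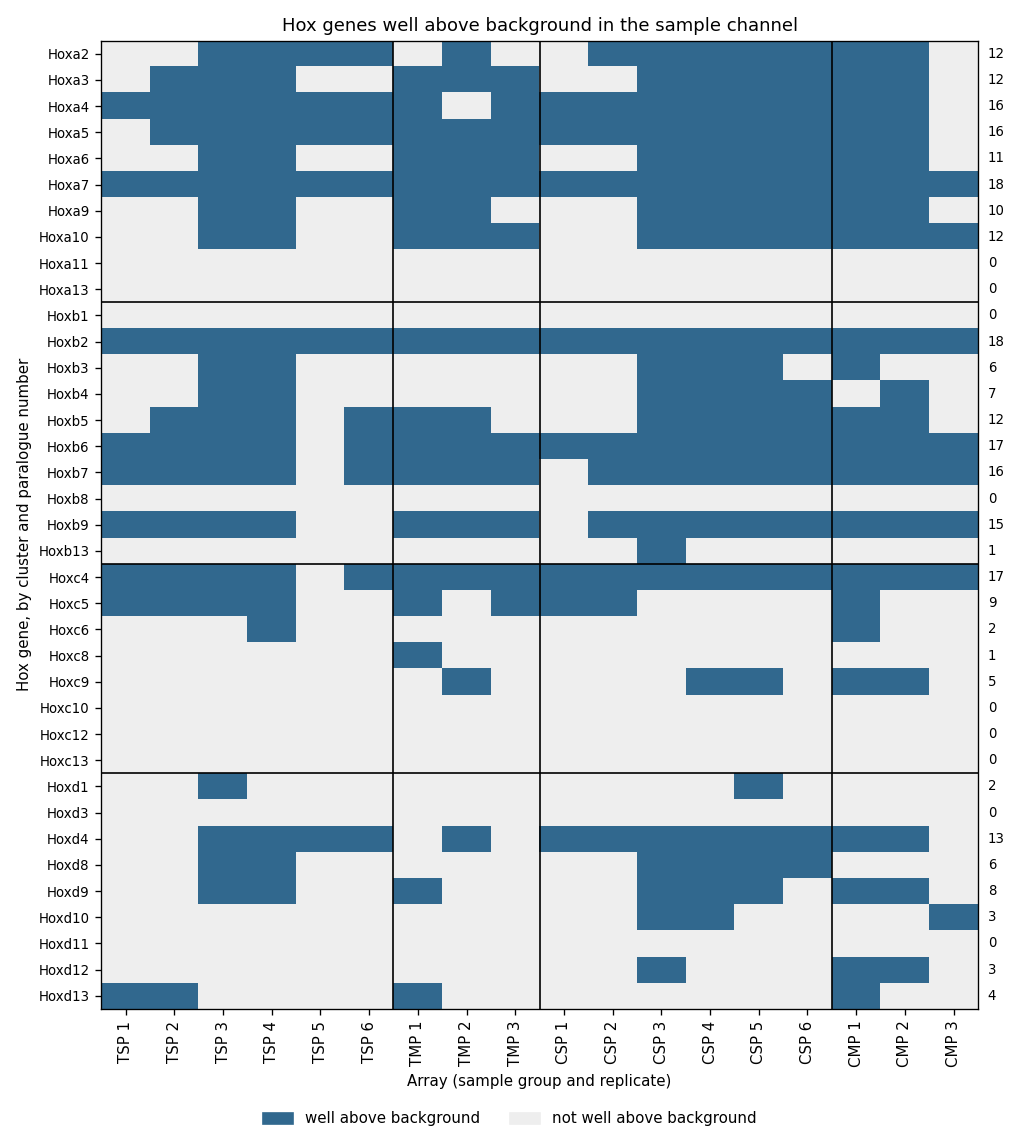
Detection of the 37 Hox genes (rows, by cluster and paralogue number) on the 18 arrays (columns, by group and replicate). Dark cells mark probes that passed the background test of the sample channel, and the count of such arrays stands at the right. Hoxa7 and Hoxb2 are dark in all 18 columns, and the columns of slides 1 and 5 hold 6 to 12 dark cells each.

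Without surgery, the side population had higher levels of 5 Hox genes than the main population, and all 5 lay in the Hoxa and Hoxd clusters. They were Hoxa2, Hoxa4 and Hoxa5, and Hoxd4 and Hoxd8. For 4 of them the differences in log2 ratio, CSP minus CMP, lay between 1.78 and 2.32, which is 3.43-fold to 5.00-fold, with 2 of the 3 CMP arrays well above background. Hoxd8 has only a bound, since no CMP array was well above background. None of the 24 tested Hox genes was called lower. Calls are at an adjusted p under 0.05 from limma with Benjamini-Hochberg adjustment over all 20455 genes tested. Across these genes 14.8% were called, 7.62% higher and 7.19% lower, beside 5 of 24 Hox genes called higher. Hoxd8 met the background requirement only through side population arrays, where it was high, so its call does not count as support. The other 4 of the 24 and the 7.62% are not like counts, since the 7.62% keeps genes that passed as Hoxd8 did. The Hox genes were not tested as a set. The median difference of the tested Hox genes was 0.42 and that of all genes 0.06, and 19 of 24 Hox genes had a positive difference. Some of the 19 lay near 0, and the share of all genes with a positive difference was not counted.

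Hoxa2, which specifies the second pharyngeal arch, had log2 ratios from 0.25 to 2.20 on the CSP arrays (median 1.13), against -1.38, -0.86 and -0.87 on CMP 1 to CMP 3. Every CSP array was above every CMP array, with a difference of 2.32 ± 0.56 (SE) and a limma adjusted p of 0.0121.

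Hoxa4, a paralogue group 4 gene, had log2 ratios from -0.01 to 0.47 on the CSP arrays (median 0.10), against -2.00, -1.82 and -1.60 on CMP 1 to CMP 3. The groups did not overlap and the CSP arrays lay close together (SD 0.18, n = 6). The difference was 1.97 ± 0.43 (SE), with a limma adjusted p of 0.00929. The second Hoxa4 probe was not well above background on any array.

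Hoxa5, the gene whose loss impairs thyroid development in mice, had log2 ratios from 0.04 to 1.86 on the CSP arrays (median 1.12), against -0.77, -0.53 and -0.80 on CMP 1 to CMP 3. The groups did not overlap, and CSP 6 was the lowest of the CSP arrays. The difference was 1.78 ± 0.42 (SE), with a limma adjusted p of 0.0112.

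Hoxd4, the Hoxd paralogue of Hoxa4, had log2 ratios from -0.85 to 1.36 on the CSP arrays (median 0.49), against -2.25, -2.03 and -1.29 on CMP 1 to CMP 3. CSP 6 was again the lowest CSP array and still above every CMP array. The difference was 2.22 ± 0.53 (SE), with a limma adjusted p of 0.0112.

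Hoxd8, the only paralogue group 8 gene tested, had log2 ratios from -0.63 to 1.30 on the CSP arrays (median -0.05), against -1.93, -1.72 and -1.42 on CMP 1 to CMP 3. The groups did not overlap. Hoxd8 was well above background on 4 of 6 CSP arrays and on none of the 3 CMP arrays, so it is given as at least 2.55-fold higher in CSP (limma adjusted p 0.0250), with measured mean log2 Cy5 signals of 8.48 in CSP and 7.02 in CMP. For such a gene the dim group was set to the lowest signal among probes well above background on each array, or to its own signal where that was higher.

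**Figure D2:**
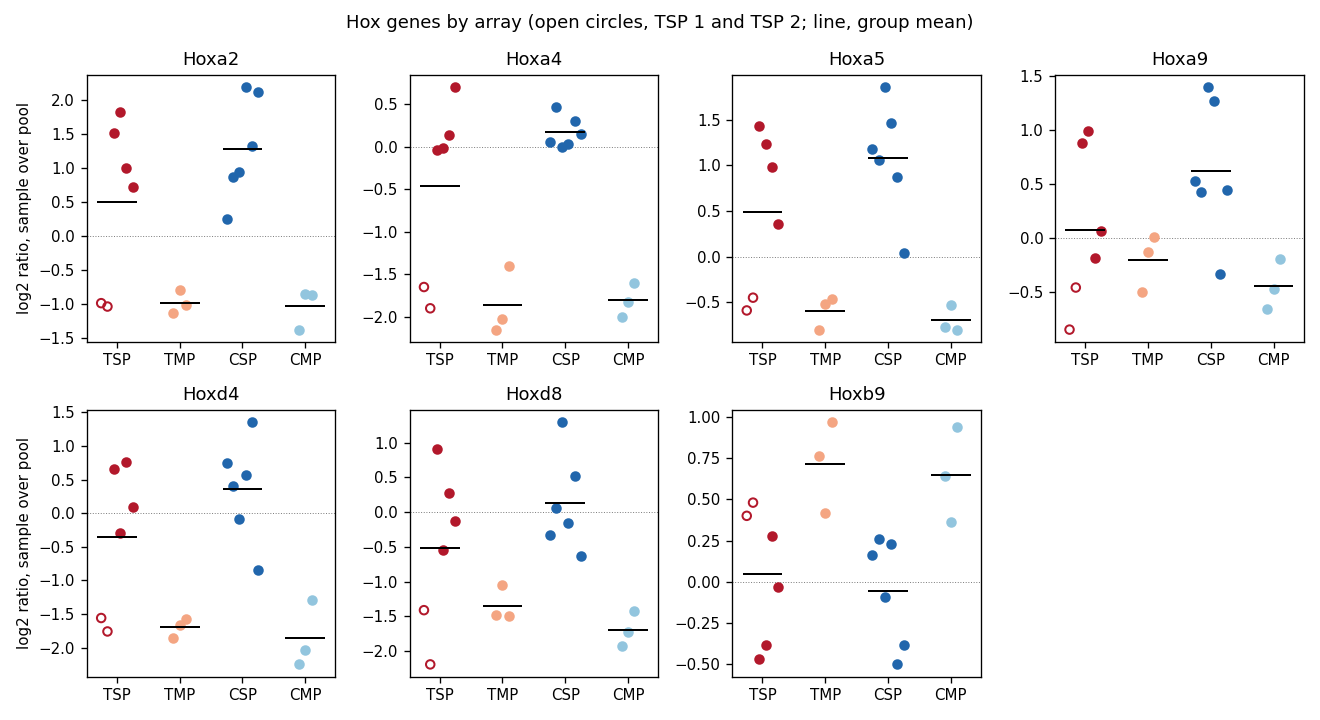
Log2 ratio of sample over tissue pool for 7 Hox genes (vertical axis) in the 4 groups (horizontal axis). Each point is an array, open circles are TSP 1 and TSP 2, and lines are group means over all arrays. In the panels of Hoxa2, Hoxa4, Hoxa5, Hoxd4 and Hoxd8 every CSP point and the 4 filled TSP points lie above every TMP and CMP point, while the open circles lie among or next to the main population points.

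The other tested Hoxa genes did not pass the test, among them Hoxa3, which lies between Hoxa2 and Hoxa4. Hoxa3, needed for the thymus and parathyroids as well as the thyroid, had log2 ratios from 0.01 to 0.65 on the CSP arrays (median 0.38), against 0.27, 0.60 and 0.38 on CMP 1 to CMP 3. The groups overlapped (difference -0.05 ± 0.21, SE). A second Hoxa3 probe did not give the same picture, with log2 ratios of 0.14 to 0.94 in CSP and -0.16 to -0.04 in CMP. Every CSP array was above every CMP array by that probe. It was well above background on 3 of 6 CSP arrays and on no CMP array, so the size of its difference is not measured. Hoxa6, Hoxa7 and Hoxa10 had differences of 0.02, 0.04 and 0.01, and Hoxa9 had 1.07 ± 0.40 (SE) with a limma adjusted p of 0.0758.

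**Figure D3:**
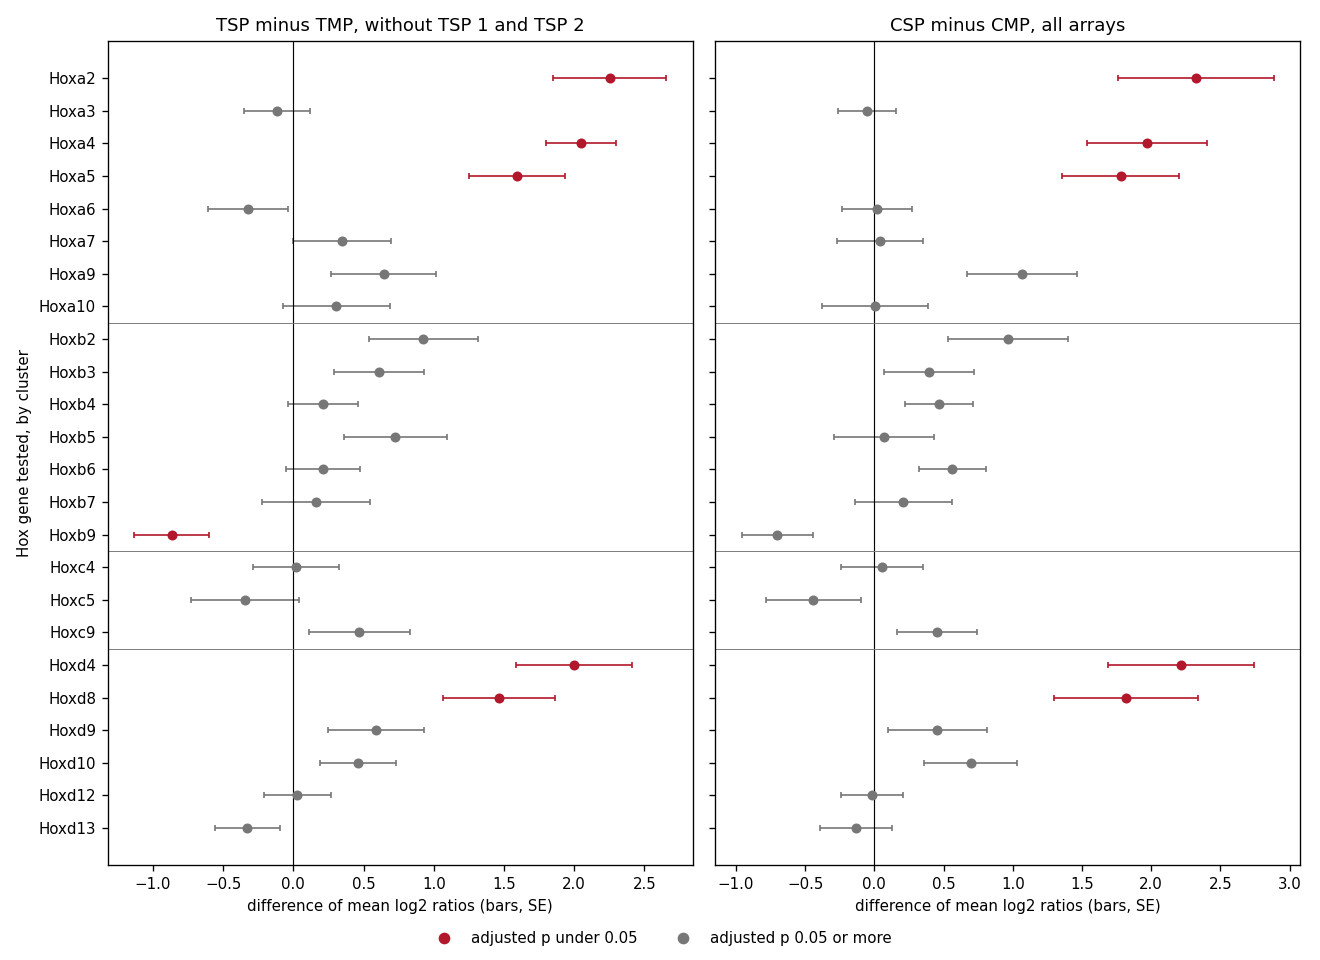
Difference in mean log2 ratio between side and main population (horizontal axis, bars are SE) for the 24 tested Hox genes in cluster order (vertical axis), after surgery without TSP 1 and TSP 2 (left) and without surgery (right). Red points have a limma adjusted p under 0.05. In the right panel the tested Hoxa3 probe lies near 0 between the red points of Hoxa2 and Hoxa4.

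No Hoxb gene was called without surgery in the fit without a block, although 3 had groups that did not overlap. Across genes with a value on every array of both groups, 11.1% had CSP wholly above CMP and 9.12% wholly below. Hoxb2, a hindbrain gene, had log2 ratios from 1.19 to 2.43 on the CSP arrays (median 2.05), against 0.64, 1.05 and 1.06 on CMP 1 to CMP 3. Its difference was 0.97 ± 0.43 (SE), with a limma adjusted p of 0.144. Hoxb6 was likewise wholly higher in CSP (0.56 ± 0.24, SE, limma adjusted p 0.121). Hoxb9 ran the other way, at -0.50 to 0.26 on the CSP arrays (median 0.03), against 0.64, 0.36 and 0.94 on CMP 1 to CMP 3. Its difference was -0.70 ± 0.26 (SE), with a limma adjusted p of 0.0755, and with the slide as a block it was called lower (-0.74, limma adjusted p 0.0175). Hoxb3, at -0.24 to 1.00 in CSP against -0.47 to 0.37 in CMP, and Hoxb5, at -0.82 to 0.62 in CSP against -0.65 to 0.27 in CMP, overlapped between groups.

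Hoxb2, Hoxb6 and Hoxb9 each had 2 probes under their name, and for Hoxb2 and Hoxb6 the probes disagreed in direction. The second Hoxb2 probe averaged 1.51 ± 1.05 in CSP and 2.61 ± 0.54 in CMP (log2 ratio, SD, n = 6 and 3), opposite in direction to the tested probe. Their sequences are shown because they read opposite strands of the same locus as the array's annotation gives it, the tested probe at chr11:96462847-96462906 on the plus strand and the other at chr11:96459585-96459644 on the minus strand (mm7). Hoxb9's tested probe at chr11:96385473-96385532, plus strand, is shown with them.
Hoxb2 tested probe: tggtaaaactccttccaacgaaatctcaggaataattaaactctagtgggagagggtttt
Hoxb2 other probe: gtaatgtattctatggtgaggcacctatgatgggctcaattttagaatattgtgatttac
Hoxb9 tested probe: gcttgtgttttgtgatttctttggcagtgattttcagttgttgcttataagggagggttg
The other Hoxb9 probe kept the direction, at 0.42 ± 0.28 in CSP and 1.01 ± 0.12 in CMP. The other Hoxb6 probe did not, at 0.20 ± 0.47 in CSP and 0.40 ± 0.28 in CMP (SD, n = 6 and 3 for each).

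**Figure D4:**
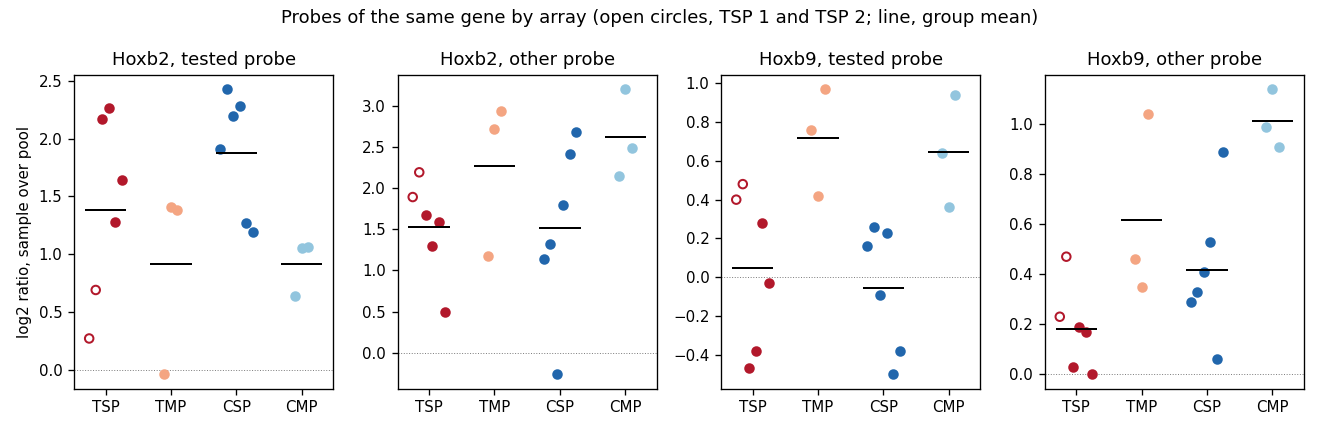
Log2 ratio of sample over pool (vertical axis) for both probes of Hoxb2 and of Hoxb9 in the 4 groups (horizontal axis). Points are arrays, open circles are TSP 1 and TSP 2, and lines are group means. The Hoxb2 probes average 1.88 and 1.51 in CSP and 0.92 and 2.61 in CMP, in opposite order, and both Hoxb9 probes are lower in CSP than in CMP.

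None of the 3 tested Hoxc genes passed the test between CSP and CMP. Hoxc4, the group 4 paralogue in this cluster, had log2 ratios from 0.13 to 1.34 in CSP (median 0.86), against 0.63, 0.81 and 0.63 on CMP 1 to CMP 3, and the CMP values fell inside the CSP range. Hoxc5 had -0.05 to 0.98 in CSP against -0.14 to 1.61 in CMP. So of the group 4 paralogues Hoxa4 and Hoxd4 rose, while Hoxb4 (0.47 ± 0.25, SE) and Hoxc4 (0.05 ± 0.30, SE) did not pass the test. Of the group 5 paralogues Hoxa5 rose, and Hoxb5 (0.07 ± 0.36, SE) and Hoxc5 (-0.44 ± 0.34, SE) did not pass it.

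After surgery no Hox gene was called between side and main population when all arrays were used. No gene of the 20455 was called by limma (0% called), and 2799 had an unadjusted p under 0.05. TSP 1 and TSP 2 decided this. On those 2 arrays Hoxa2 had log2 ratios of -0.99 and -1.04, Hoxa4 -1.65 and -1.90, Hoxa5 -0.59 and -0.45, Hoxd4 -1.56 and -1.76, and Hoxd8 -1.41 and -2.19. On these arrays Hoxa4 was well above background on both and Hoxa5 on TSP 2, and the other 3 genes on neither. Hoxa4 was below the highest main population value of -1.40 on both, and Hoxa5 on TSP 2 was above the highest main population value of -0.47.

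Without TSP 1 and TSP 2, the same 5 Hox genes were higher in TSP than in TMP, and 1 was lower. Hoxd8 met the background requirement only through side population arrays, so its call does not count as support here either. In this fit 14.7% of all genes were called, 7.69% higher and 7% lower. The groups did not overlap in 12.5% of genes in the higher direction and in 11.3% in the lower. Hoxa2 had 1.52, 1.83, 1.00 and 0.73 on TSP 3 to TSP 6, against -1.14, -0.80 and -1.02 on TMP 1 to TMP 3 (difference 2.25, limma adjusted p 0.000824). All 4 TSP arrays were above every TMP array. On the 3 TMP arrays Hoxa2 and Hoxd4 were well above background on 1, Hoxa4 on 2 and Hoxa5 on 3.

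Hoxa4 had -0.04, -0.02, 0.13 and 0.70 on TSP 3 to TSP 6, against -2.15, -2.03 and -1.40 on TMP 1 to TMP 3 (difference 2.05 ± 0.25, SE, limma adjusted p 2.64e-05). Hoxa5 had 1.43, 1.23, 0.98 and 0.36 on TSP 3 to TSP 6, against -0.80, -0.52 and -0.47 on TMP 1 to TMP 3 (difference 1.59, limma adjusted p 0.00377). Both were apart between the groups. Hoxd4 had 0.66, -0.30, 0.76 and 0.09 on TSP 3 to TSP 6, against -1.85, -1.67 and -1.57 on TMP 1 to TMP 3 (difference 2.00, limma adjusted p 0.00265). Hoxd8 had 0.91, -0.55, 0.27 and -0.13 on TSP 3 to TSP 6, against -1.48, -1.05 and -1.50 on TMP 1 to TMP 3. It was well above background on 2 of these 4 TSP arrays and on no TMP array, and is given as at least 2.20-fold higher (limma adjusted p 0.0174, and 0.143 with the slide as a block), with measured mean log2 Cy5 signals of 8.49 in TSP and 7.36 in TMP.

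Hoxb9 was the gene that fell. It had -0.47, -0.38, 0.28 and -0.03 on TSP 3 to TSP 6, against 0.76, 0.42 and 0.97 on TMP 1 to TMP 3 (difference -0.87 ± 0.27, SE, limma adjusted p 0.0362). Leaving out TSP 3, TSP 4, TMP 1 or TMP 3 as well ended the Hoxb9 call, and leaving out TSP 3, TMP 1 or TMP 3 ended that of Hoxd8. Without TSP 1 and TSP 2, the CSP minus CMP fit added Hoxa9 (limma adjusted p 0.0385) to the 5 genes, with 19.2% of all genes called, 10.2% higher and 9% lower. The Hoxa9 call ended when CSP 1, CSP 3, CSP 4, CMP 1, CMP 2 or CMP 3 was left out as well, and with the slide as a block (0.50, limma adjusted p 0.127).

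Within slide 4, which held CSP 5, CSP 6 and CMP 2 together with TMP 2, Hoxa2, Hoxa4, Hoxa5 and Hoxd4 differed by 0.99 to 2.59 in CSP minus CMP, none called (limma adjusted p 0.109 to 0.316, 0% of all genes called). Within slide 5, with TSP 5, TSP 6 and TMP 3 together with CMP 3, Hoxa4 and Hoxa5 were well above background on TMP 3 and differed by 1.82 and 1.14 in TSP minus TMP, neither called (limma adjusted p 0.107 and 0.267, 1.83% of all genes called). With the slide as a block over all arrays, 7 Hox genes were called in CSP minus CMP. The 5 genes and Hoxa7 (0.51, limma adjusted p 0.0423) were higher (17.3% of all genes called higher), and Hoxb9 was lower (10.7% of all genes called lower). In TSP minus TMP the block gave 1 call, Hoxb9, lower (0.313% of all genes called lower). Scaling the arrays to a common spread ended all 5 calls (limma adjusted p 0.0504 to 0.108). Leaving out CMP 1 or CMP 2 left Hoxa4 alone of the 5 called.

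Partial thyroidectomy was not followed by a Hox difference that passed the test within either population. In TSP minus CSP no Hox gene and no other gene was called by limma with all arrays (0% called, 1879 genes with an unadjusted p under 0.05) or without TSP 1 and TSP 2 (0% called, 713 genes). With the slide as a block over all arrays, 4.62% of all genes were called and no Hox gene was. Without them the 5 genes differed by -0.08 to 0.03, with SE from 0.21 to 0.35. Hoxb5 had the highest difference of the 24, 0.68 ± 0.31 (SE, unadjusted limma p 0.0431, adjusted 1.00). In TMP minus CMP no gene was called (0% called, 26 genes with an unadjusted p under 0.05), and the 24 Hox differences lay between -0.21 and 0.35, with Hoxb2 at 0.92 in both groups. The side population difference after surgery minus that without surgery was called for no gene either (0% called by limma, 223 genes with an unadjusted p under 0.05 over all arrays and 125 without TSP 1 and TSP 2).

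On slide 1, which held TSP 1, TSP 2, CSP 1 and CSP 2, 13 of 23 Hox genes were called in TSP minus CSP, 12 of them lower, and 40.5% of all genes were called, 23.3% lower. Of the 13, 5 were well above background on no array of this slide. The TSP arrays of slide 1 were those with the main population profile, so a difference after surgery cannot be told apart from that profile there. Hoxa4 and Hoxa5 were lower by -2.03 and -1.64 in log2 ratio. On slide 3, which held TSP 3, TSP 4, CSP 3 and CSP 4, none was called (0% of all genes called by limma).

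Markers of other cell types moved with the same split. Endothelial markers had mean log2 ratios of 0.81 to 1.92 on TSP 3 to TSP 6 and 0.51 to 2.35 in CSP, against -2.05 to -1.41 in TMP and -2.13 to -1.47 in CMP, and 9 of 10 were higher in CSP than in CMP. Fibroblast markers had -0.38 to 0.94 on TSP 3 to TSP 6 and -1.65 to 0.71 in CSP, against -3.89 to -3.06 in TMP and -4.07 to -3.34 in CMP, with 8 of 10 higher in CSP than in CMP. Follicular markers had -0.10 to 0.51 on TSP 3 to TSP 6 and 0.12 to 1.86 in CSP, against 2.73 to 3.07 in TMP and 2.51 to 3.12 in CMP, with 7 of 10 lower in CSP than in CMP, and epithelial markers were lower in 8 of 8. CSP 6 had the highest follicular mean of the CSP arrays, the lowest Hoxa5, Hoxd4 and Hoxd8, and Hoxa2 and Hoxa4 inside the range of the others. CSP 3 had the lowest fibroblast mean (-1.65), yet the highest Hoxa5 (1.86) and Hoxd8 (1.30). Its Hoxa4 was the lowest (-0.01), and its Hoxa2 and Hoxd4 lay inside the range of the others. The counts of markers called compare with 7.62% of all genes called higher and 7.19% lower. The part of these cell types in the Hox differences was not tested.

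The remaining marker lists held few calls between CSP and CMP. Of 8 leukocyte markers 1 rose and 1 fell, of 7 smooth muscle and pericyte markers 1 rose and 1 fell, and of 6 C cell and parathyroid markers 1 rose (Scg2). The smooth muscle and pericyte means still split with the populations. They were -0.72 to 0.13 in CSP and -0.42 to 0.32 on TSP 3 to TSP 6, against -1.80 to -0.95 in the main population. Without TSP 1 and TSP 2, 3 of the 7 rose and 1 fell in CSP minus CMP (10.2% of all genes higher, 9% lower). The counts were the same in TSP minus TMP (7.69% higher, 7% lower). None of 3 adipocyte, 3 erythroid, 6 Schwann and neural and 5 skeletal muscle markers measured was called by limma.

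TALE homeodomain proteins bind DNA beside Hox proteins, and all 10 genes of that list were measured. In CSP against CMP 2 were higher and 1 was lower, with a list median of -0.09 against 0.06 for all genes, and with 7.62% of all genes higher and 7.19% lower. Meis2, named Mrg1 on the array, averaged -0.18 in CSP and -1.53 in CMP (difference 1.35, limma adjusted p 0.0227). Pknox1 averaged 0.45 in CSP and -0.75 in CMP (2.30-fold, limma adjusted p 0.0429), and Pbx2 averaged -0.19 in CSP and 0.42 in CMP (-0.61, limma adjusted p 0.0233). Without TSP 1 and TSP 2, Meis1, Meis2 and Pknox1 were higher and Meis3, named Mrg2 on the array, was lower in TSP than in TMP (7.69% of all genes higher and 7% lower).

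Retinoic acid induces the low-numbered Hox genes in embryos, and 2 genes of the retinoid and ParaHox list rose, of 6 measured and 11 named, with 7.62% of all genes called higher. Cyp26b1, the enzyme that degrades retinoic acid, averaged 0.55 in CSP and -2.59 in CMP (difference 3.14, limma adjusted p 0.0103). Rarb, a retinoic acid receptor, averaged 0.82 in CSP and -1.36 in CMP (2.18, limma adjusted p 0.0145). Both were also higher in TSP than in TMP without TSP 1 and TSP 2, by 2.76 for Cyp26b1 and 2.09 for Rarb.

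Among the Polycomb genes, which keep Hox genes silent, 15 of 16 were measured, none was higher and 2 were lower in CSP than in CMP, Cbx6 (-1.14, limma adjusted p 0.0372) and Phc3 (-0.91, limma adjusted p 0.0125). Of all genes 14.8% were called, and 7.19% were called lower, so 2 of 15 is near the background. Ezh2, the methyltransferase of this system, was lower in TSP than in TMP without TSP 1 and TSP 2 (-1.18, limma adjusted p 0.0150). It was the only 1 of the 15 called there, with 7% of all genes called lower, which is also near the background. None of 9 measured genes of the Trithorax and demethylase list, which act against Polycomb, was called.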

How the data were processed

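Scanner output of 18 two-colour Agilent arrays was used, Cy5 sample against a common Cy3 pool, with no dye swap. Per the file headers, the deposited intensity columns are mean and background signals, beside the software's log10 ratio and flags for background, saturation and outliers. The headers name Feature Extraction 9.5.1.1 and the submitters' processing notes 8.5.1.1. The authors' deposited table holds log2 ratios of 33040 probes, in the direction of the scanner ratios, with column medians from 0.13 to 0.30. Its normalization is not given in the sources used here.

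Intensities were corrected with normexp (offset 50) and loess-normalized within each array in limma 3.58.1 (R 4.3.3). Control spots had weight 0 and outlier spots were left out. Probes were averaged over spots. Of 41174 probes, each gene kept its brightest one that passed the software's background flag for Cy5 on 3 or more arrays, which left 20455 genes. Group means of log2 ratios were compared with limma, using all 4 groups for the spread, with Benjamini-Hochberg adjustment at 0.05. Main population samples of the same replicate number correlated at 0.6657 to 0.8061 in their deviations from the group means. Each such pair also shared a slide (slide 2, 4 or 5), so a pairing of samples and a slide effect cannot be told apart. A block for these numbers within the main population gave no Hox call in TMP minus CMP, and the side population numbers did not pair samples. Tests on simulated data recovered 78% of genes changed 4-fold and 26% of those changed 2-fold in CSP minus CMP (20455 genes). At 2-fold, recovery was 10% in TSP minus TMP, 44% in TSP minus CSP and 20% in TMP minus CMP. The simulated noise was independent between arrays and held no slide effect, so recovery on the real arrays was not measured. Figures were drawn with matplotlib 3.10.9.

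The Hox genes, the partner and marker lists and the motifs were chosen with earlier results of these data known. A gene that meets the Hox rule is not reported here: it stayed in the fit over all genes and is left out of the Hox counts. Hox genes were described array by array where called in any comparison, where they belonged to paralogue groups 3 or 5, or where they were the brightest of a cluster. Listed partner genes were named where called, at most 4 per list. Alternatives covered background correction, normalization, filters, probe choice, slide, replicate number and arrays left out. Precision is limited by the number of arrays.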

Additional observations from a re-analysis of the deposited data

Results flagged for a closer look

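Among 48 sets of arrays of one group (24 Hox genes, TSP and CSP, 6 arrays each but 5 for Hoxb4 in CSP), 2 held an array far from the others by Dixon's criterion, and chance alone marks about 1 in 20. Hoxc9 had a log2 ratio of -0.62 on CSP 4, against -1.42 to -1.23 on the other CSP arrays. Hoxb6 had 1.38 on CSP 5, against 0.50 to 0.70 on the other CSP arrays.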

How the results depend on the processing

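None of the 5 Hox genes called in CSP minus CMP changed sign under any alternative run. The count was 0 after scaling between arrays, 3 of 12 when a probe had to be well above background on every array of a group, 0 within slide 4, and 5 to 7 under the other settings run on all groups. It ranged from 1 to 6 with 1 array left out, and was 1 without CMP 1 or without CMP 2. Hoxa4 was called with each array left out. A replicate block gave 7 (numbers 1 to 3) and 6 (all arrays) calls in CSP minus CMP, and 0 in the other contrasts. The counts of Hox calls in this paragraph, before and after this point, are not set against the share of all genes called. That share differed between settings. In CSP minus CMP it was 0% within slide 4, 14.8% with all arrays and 19.2% without TSP 1 and TSP 2. The side population numbers did not pair samples, so the counts with a replicate block add no support to the calls. In TSP minus TMP, 0 with all arrays became 1 with the slide as a block, 6 without TSP 1 and TSP 2, 5 with the slide as a block without them, 6 without slide 1, and 0 to 1 with 1 array left out. In TSP minus CSP, 0 became 13 within slide 1, whose TSP arrays were TSP 1 and TSP 2. Of all genes 944 were called in that contrast with the slide as a block and 201 with the replicate block on numbers 1 to 3, against 0. With TSP 1 and TSP 2 left out, a further array left out gave 5 to 7 calls in CSP minus CMP and 4 to 6 in TSP minus TMP. Median centring moved the median of all genes in TSP minus CSP to 0.24, from -0.04, and the Hox median to -0.008, from -0.153. The Hox genes above background numbered 24, and 33 by the software's other detection flag. Signal over background limited most members on slides 1 and 5.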

Other observations

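Hoxc4 and Hoxc5, neighbours on chromosome 15, had Cy5 signals that differed between slides more than between groups. On the 4 arrays of slide 1 and the 2 arrays of slide 2, Hoxc5 had log2 Cy5 signals of 9.38 to 9.78 and 9.90 to 10.02, for TSP, TMP, CSP and CMP samples alike. On slides 3, 4 and 5 it had 6.90 to 7.49, 6.91 to 7.42 and 7.82 to 8.43. Hoxc4 had 9.84 to 10.61 on slide 1 and 9.62 to 9.99 on slide 2, against 8.55 to 8.76, 8.70 to 8.97 and 8.28 to 8.87 on slides 3, 4 and 5. In log2 ratio, slide 1 gave 0.02 to 0.25 for Hoxc4 and slide 3 gave 0.85 to 1.22. The source of the slide difference in Hoxc4 and Hoxc5 was not tested.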
